A study of Mus musculus with 4 samples.

Results

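Tumour neutrophils were compared between mouse fibrosarcomas whose tumour cells lacked Raldh1 and Raldh3, enzymes that make retinoic acid, and Cas9 controls. They were 272 of the 27705 cells that passed the cell filter in single-cell RNA libraries of live, sorted CD45+ cells, with 52 and 127 cells from control 1 and control 2 and 59 and 34 cells from DKO 1 and DKO 2. Values of all 4 libraries are given in that order below. A cell was taken as a neutrophil where S100a8 and S100a9 together made up at least 1% of its unique molecular identifiers (UMIs, each standing for 1 captured RNA molecule) and Csf3r and Cxcr2 together had at least 1 UMI. It also had to have 0 UMIs of C1qa, C1qb and C1qc, which mark macrophages, and 0 of Cd3d, Cd3e and Cd3g, which mark T cells. The cell filter asked for at least 200 genes and at most 10% mitochondrial UMIs. The members were thus selected on their levels of these 10 genes, which describe them. The 4 of the 10 that passed the filter on low counts stayed in the fit over all genes, and no test of them is read as a result.

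The study asked how loss of Raldh1 and Raldh3 from the tumour cells changes the leukocytes of a tumour. Both groups were untreated fibrosarcomas taken 11 days after implantation, digested with collagenase B and DNase I, and sorted as CD45+ cells that excluded the dead-cell dye 7AAD. The control group is labelled Cas9 Control and the other Raldh1/3 DKO (double knockout). A group had 2 libraries with the cells of 2 tumours pooled in each (4 tumours per group), and p-values measure how far such pools vary. An exact two-sided permutation test of 2 against 2 libraries cannot give a p below 0.333. The labels tie the editing to the tumours, and give no edit for the neutrophils, which come from the host. The tumour line, its clones, the mouse strain and the age of the mice are not given in the sources used here.

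Neutrophils are short-lived granulocytes that the bone marrow releases under granulocyte colony-stimulating factor, whose receptor is Csf3r, and that follow chemokines through Cxcr2. They carry large amounts of calprotectin, the pair of calcium-binding proteins encoded by S100a8 and S100a9, and granule proteins made in turn as they mature. In tumours they take on a state with raised hypoxia, glycolysis and cytokine genes, in which cells can restrain or aid T cells. Retinoic acid, the product of the Raldh enzymes, acts through nuclear receptors of the RAR and RXR families, and is known to drive maturation of granulocyte precursors.

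The gate selected cells low in RNA, as neutrophils are. Their median depth was 1666.5, 1905, 1765 and 2388 UMIs per cell, against 7349, 7654, 7206 and 8450 over all cells that passed the filter. Calprotectin made up a median of 4.55, 8.20, 5.51 and 5.05% of a cell's UMIs. Just above the 1% limit, up to 1.25%, lay 9 cells, and 19 cells that met every other condition lay just below it, between 0.75 and 1%. In all, 683 cells failed the calprotectin limit alone, 212 the C1q limit alone, 19 the receptor limit alone and 17 the CD3 limit alone. The 212 were spread as 38, 120, 44 and 10 cells, and 196 of them held 1 or 2 C1q UMIs with depths like those of the neutrophils (medians of 1828, 1894, 1749.5 and 1637.5 UMIs). Free macrophage RNA was not corrected for, so the results below are also given, where they differ, with cells of up to 2 C1q UMIs taken in, an alternative chosen after the data were seen.

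A few cells weighed heavily on single libraries, because summed counts rest on few cells. In 3 cells the UMI count was over 3 times the median of their library's neutrophils. The cell in DKO 2 had 13310 UMIs, 15.1% of that library's neutrophil total, with 1157 UMIs of the granule genes Camp, Ltf and Ngp. The cell in DKO 1 had 9318 UMIs, 8.82% of its total, with 143 UMIs of B cell markers and 110 of MHC class II genes, and was marked by the doublet caller Scrublet. The cell in control 2 had 10304 UMIs, 3.87% of its total, and was also marked. Results that rest on these cells are given with and without them. The libraries held 57458026 to 80032966 UMIs in all. Pairs of libraries shared 20 to 38 barcodes, of which 0 were neutrophils. The neutrophil sums held 87651, 266397, 105696 and 88024 UMIs, and levels are given as counts per 1000000 of these (CPM). The 3′ tag counts each molecule once, so CPM were not divided by gene length.

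Genes that the rule did not use also marked these cells as mature neutrophils. Setting mean CPM in neutrophils against the other cells, the ratio was 432 for Retnlg (resistin-like gamma, a secreted product of myeloid cells), 280 for G0s2 (a lipase inhibitor), 342 for Stfa2l1 (a stefin), 303 for Gm5483, 292 for Asprv1 (a protease) and 290 for Il1f9 (an interleukin-1 family cytokine). These ratios describe a gated set and were not tested. Of the 7 primary granule genes, Mpo, Elane and Ctsg, which precursors transcribe, had 0 UMIs in every library, and Prtn3 had 1 in control 2. The list's summed level of 9663, 10481, 11457 and 7805 CPM was almost all Srgn, a granule proteoglycan that many leukocytes make, at 9606, 10387, 11278 and 7691 CPM. The surface antigen Ly6g, commonly used to sort mouse neutrophils, was sparse, at 68.5, 120, 18.9 and 79.5 CPM, and was seen in 7.69, 12.6, 3.39 and 5.88% of the cells. In T cells (at least 2 CD3 UMIs and 0 of C1q), at median depths of 4648.5, 4469, 4904 and 6157 UMIs, it was seen in 0, 0, 0.409 and 0%.

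Camp, Ngp and Ltf, the secondary granule genes of late bone marrow precursors, came mostly from 1 cell. Camp, the cathelicidin gene, was at 0, 0, 0 and 6521 CPM. Ngp was at 0, 22.5, 0 and 4578 CPM, and Ltf (lactoferrin) at 11.4, 0, 28.4 and 2068 CPM. The DKO 2 cell with 13310 UMIs held 1157 of the UMIs of these genes and had 37.4% calprotectin, the highest share of the 272 cells. Of the 11 tested genes of the secondary and tertiary granule list, 0 passed in either direction, and the median log2 change was 0.29 with the 3 deep cells and -0.28 without them. Mmp9, the gelatinase of tertiary granules, was at 1529, 1006, 1381 and 1295 CPM, with overlapping groups. Mmp8, the neutrophil collagenase, was at 331, 571, 142 and 250 CPM, lower in both DKO libraries (log2 -1.35 ± 0.42), a difference that did not pass. Lcn2, the iron-chelating lipocalin, was at 570, 1186, 303 and 2363 CPM, and its log2 value turned from 0.48 to -1.49 when the deep cells were left out.

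Neutrophils made up about 1% of the sorted cells in both groups, and no difference in their share could be shown. The control shares were 0.628% (95% Clopper-Pearson interval 0.470 to 0.823) and 1.59% (1.32 to 1.88), and the DKO shares 0.899% (0.685 to 1.16) and 0.700% (0.485 to 0.976). The DKO libraries lay between the control libraries, so the groups overlapped. Group means were 1.11 ± 0.678% (SD, n = 2) and 0.799 ± 0.141% (SD, n = 2), a log2 value of -0.47 (exact two-sided permutation test, p = 1). Control 2 set the direction: without it the log2 value was 0.35. Taking in cells of up to 2 C1q UMIs gave 1.05, 3.00, 1.51 and 0.864% (log2 -0.77, exact permutation p = 0.667). Of the cells with 0 C1q UMIs, neutrophils made up 5.92 ± 3.51% in control and 3.03 ± 0.481% in DKO (SD, n = 2; log2 -0.97, exact permutation p = 0.333). The intervals cover counting error alone.

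**Figure D1:**
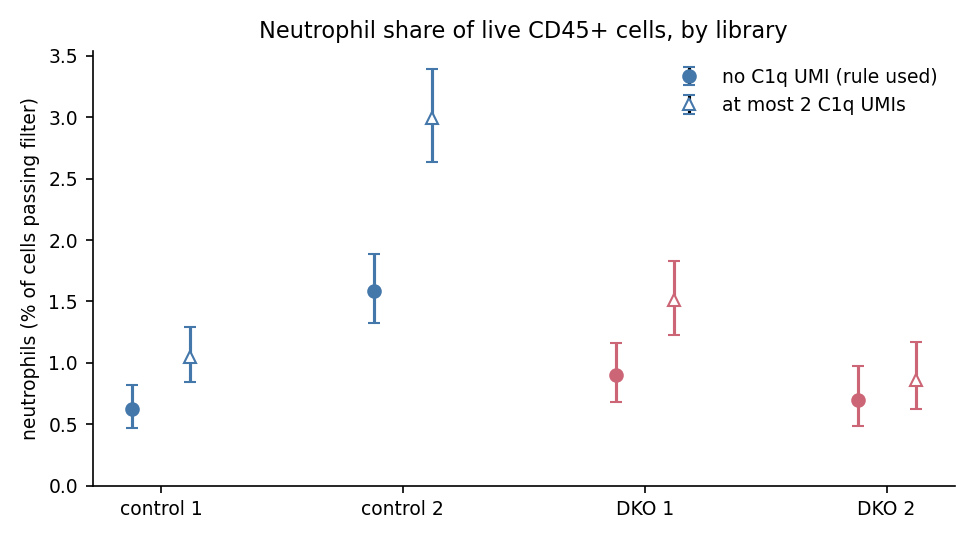
Neutrophils as a percent of the live CD45+ cells passing the filter in each of the 4 libraries, with 95% Clopper-Pearson intervals, under the rule used (filled circles) and with up to 2 C1q UMIs allowed (open triangles). Control 2, at 1.59% and 3.00%, lies above the other 3 libraries under both rules, and control 1, at 0.628%, below both DKO libraries under the rule used.

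Of 1474 genes tested in the neutrophil sums, 1 fell in DKO and 0 rose. By edgeR's quasi-likelihood test with Benjamini-Hochberg adjustment the calls were 0.0678% of tested genes lower and 0% higher. At an unadjusted p below 0.05, 75 genes were lower and 54 higher. DESeq2 called the same gene lower and 0 higher. As a background for the counts below, the groups did not overlap for 21.8% of tested genes with higher values in DKO and for 16.3% with lower values, and the median log2 value of all tested genes was 0.03. Apart from Retnlg, the genes named below are given as values that did not pass. Calls depended on which libraries were fitted, and Retnlg was called in each fit that left out 1 library except that without DKO 1. Such fits also called genes that lay mostly in 1 deep cell. Without DKO 1, Camp (log2 12.8), Ngp (log2 7.91) and Ltf were called higher, and the deep DKO 2 cell held 1157 UMIs of these genes. Without DKO 2, Igkc and Ighm were called higher (log2 8.44 and 3.125). The deep DKO 1 cell held 143 UMIs of B cell markers, and without it Igkc was at 0 and Ighm at 72.6 CPM there.

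Retnlg was the gene that fell. It encodes resistin-like gamma, a secreted protein of bone marrow and circulating neutrophils, and lies at chr16:48872621-48874496 on the plus strand (GRCm38). The control libraries had 5259.5 and 7046 CPM, the DKO libraries 1012 and 1568 CPM. Both DKO libraries lay far below both control libraries. The log2 change was -2.34 ± 0.30 (SE; edgeR, adjusted p = 0.0113). With cells of up to 2 C1q UMIs it was -2.25 (edgeR, adjusted p = 0.00380), and in neutrophils with at least 5% calprotectin -2.27 (edgeR, adjusted p = 0.0159). The call was lost without DKO 1 (log2 -2.08, edgeR adjusted p = 0.135) and in cells that also had 0 UMIs of the macrophage and monocyte genes Csf1r, Ly6c2, Mrc1 and Apoe (log2 -3.18, edgeR adjusted p = 0.198).

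Retnlg was patchy from cell to cell. A sum over cells cannot tell fewer Retnlg-bearing cells from less Retnlg per cell. The share of bearing cells was counted, while the level among the bearing cells alone was not. It was seen in 40.4, 64.6, 35.6 and 50% of neutrophils, groups that overlapped, and in 0.467, 0.402, 0.511 and 1.05% of T cells. Thinned to 1000 UMIs per cell, which left 42, 120, 49 and 32 neutrophils, the shares were 42.9, 56.7, 34.7 and 37.5%, with both DKO libraries below both controls. Over all neutrophils, those without Retnlg included, the upper quartile was at 25.3, 52.5, 8.89 and 12.5 Retnlg UMIs per 10000. The richest single cells held 361, 758, 156 and 126 per 10000. The same direction was seen among the cells that 1 or 2 C1q UMIs had kept out of the gate, with 2174, 4711, 772 and 305 CPM. Those were 35, 113, 40 and 8 cells of the same libraries, and the 8 of DKO 2 held 16406 UMIs in all. They were not used in the test. Outside the gate the mean over the 4 libraries was 8.62 CPM.

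The promoter of Retnlg is shown because this gene carried the only call, and because retinoic acid receptors bind repeats of a 6-base half-site. The sequence is from RefSeq (GRCm38.p6), ends at the base before the transcription start, and has matches to AGGTCA or GGGTCA on either strand in capitals.
Retnlg promoter, chr16:48872358-48872607, plus strand: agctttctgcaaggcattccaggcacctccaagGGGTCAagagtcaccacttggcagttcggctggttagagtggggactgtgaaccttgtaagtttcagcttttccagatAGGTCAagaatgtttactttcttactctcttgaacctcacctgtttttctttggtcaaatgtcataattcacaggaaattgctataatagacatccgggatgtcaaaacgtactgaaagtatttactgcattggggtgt
It held 2 matches. Of 32851 RefSeq promoter windows, 23.9% held at least 1, as did 20.9% of the 1503 windows of tested genes. A match is a description of the letters and not a binding site.

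**Figure D2:**
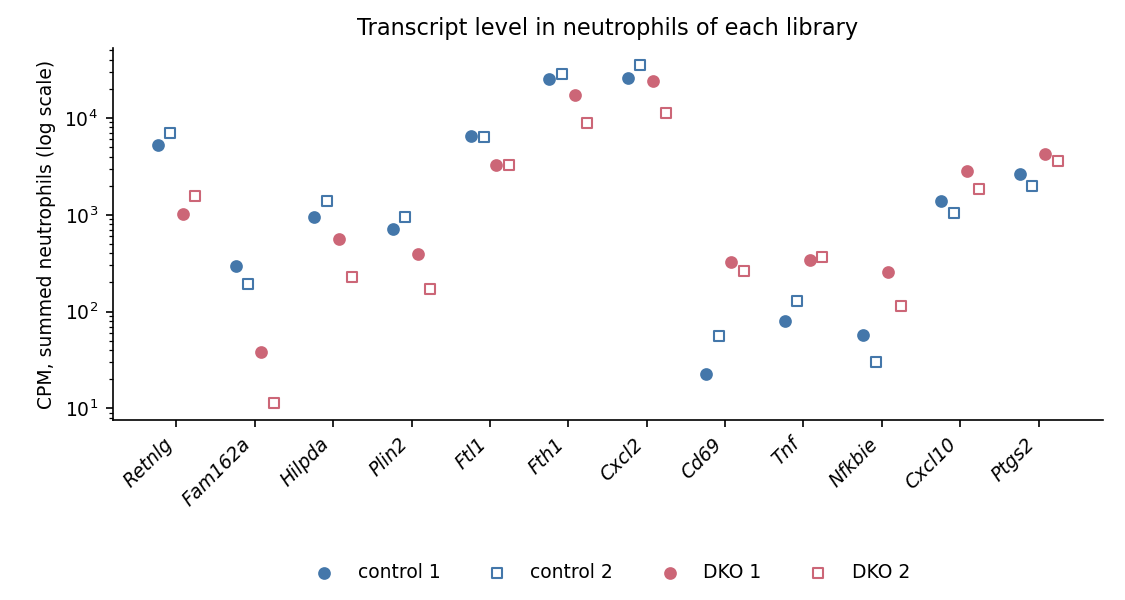
Level of 12 transcripts in the summed neutrophils of each library, in CPM on a log axis, with filled circles and open squares for the first and second library of control (blue) and DKO (red). Retnlg, with control points at 5259.5 and 7046 CPM and DKO points at 1012 and 1568 CPM, is the gene that passed the test, and for Cxcl2 and Fam162a DKO 2 is the lowest library.

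Taking in cells of up to 2 C1q UMIs, which raised the genes tested to 2281, gave 7 calls, all of them lower in DKO (edgeR, adjusted p at most 0.0378). Retnlg and Fam162a were among them. The others, named after their values were seen, were the nitric oxide synthase Nos2, the chemokine gene Ccl5, the prokineticin gene Prok2, the acute-phase gene Saa3 and 2010005H15Rik. Within the rule used Nos2 had 11, 22, 0 and 1 UMIs, or 125.5, 82.6, 0 and 11.4 CPM, too few to pass the filter on low counts.

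The hypoxia and glycolysis genes leaned to lower values in DKO neutrophils. Of 21 tested, 20 were negative and 1 positive, 0 passed the test, and the median log2 value was -0.67, against 0.03 for all tested genes and 0.02 for the same list in the other cells. In 10 of the 21 both DKO libraries lay below both controls (47.6%, against the background of 16.3%), and in 0 above. The list's summed level was 10017, 12586, 9584 and 6703 CPM, so that DKO 1 lay close to control 1 and DKO 2 well below (log2 -0.47, exact permutation p = 0.333).

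Hilpda, Fam162a and Egln3 come first here because their changes are set against those of other populations below. Hilpda, which encodes a lipid droplet protein that inhibits triglyceride breakdown in hypoxia (chr6:29272488-29275446, plus strand), was at 958, 1378, 558 and 227 CPM (log2 -1.66 ± 0.40; edgeR, adjusted p = 0.308). Both DKO libraries were lower, DKO 2 by far. Fam162a, a mitochondrial protein gene that hypoxia-inducible factor (HIF) induces (chr16:36043761-36071594, minus strand), was at 297, 195, 37.8 and 11.4 CPM, or 26, 52, 4 and 1 UMIs (log2 -3.23 ± 0.57; edgeR, adjusted p = 0.0711). Fam162a was not on the fixed list. It passed without the 3 deep cells (log2 -3.09; edgeR, adjusted p = 0.00785) and with cells of up to 2 C1q UMIs (log2 -3.09; edgeR, adjusted p = 0.00405). Egln3, a prolyl hydroxylase that marks HIF for decay and is itself a HIF target (chr12:54178981-54203860, minus strand), was at 308, 375, 265 and 68.2 CPM (log2 -1.11 ± 0.48), with DKO 1 near control 1. Higd1a, a mitochondrial gene that hypoxia induces, was off the list too and named after its values were seen. It was at 228, 173, 94.6 and 34.1 CPM (log2 -1.62 ± 0.49), with both DKO libraries lower.

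Of the glycolytic enzymes, aldolase A (Aldoa, ENSMUSG00000030695) was at 867, 1047, 501 and 477 CPM (log2 -1.06 ± 0.29), and lactate dehydrogenase A (Ldha) at 491, 604, 322 and 318 CPM (log2 -0.87 ± 0.32). For both genes the DKO libraries lay together below both controls. Triosephosphate isomerase (Tpi1), off the list and named after its values were seen, was at 354, 462, 151 and 216 CPM (log2 -1.27 ± 0.38). Pyruvate kinase (Pkm) was at 1369, 1535, 1410 and 1113 CPM, with overlapping groups. The lactate exporter Slc16a3 was the 1 positive member, at 764, 965, 1542 and 773 CPM.

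The promoters of Hilpda, Fam162a and Egln3 are shown because HIF binds a 5-base core in many hypoxia genes. Matches to ACGTG or GCGTG on either strand are in capitals. CACGT and CACGC are the same letters read on the other strand, and ACGTG and CACGT overlap where CACGTG occurs.
Hilpda promoter, chr6:29272238-29272487, plus strand: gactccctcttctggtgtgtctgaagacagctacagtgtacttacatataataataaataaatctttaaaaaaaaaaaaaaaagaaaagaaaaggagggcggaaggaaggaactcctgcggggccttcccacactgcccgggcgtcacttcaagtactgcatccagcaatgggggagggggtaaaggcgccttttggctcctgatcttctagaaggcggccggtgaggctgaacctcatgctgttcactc
Fam162a promoter, chr16:36071595-36071811, minus strand: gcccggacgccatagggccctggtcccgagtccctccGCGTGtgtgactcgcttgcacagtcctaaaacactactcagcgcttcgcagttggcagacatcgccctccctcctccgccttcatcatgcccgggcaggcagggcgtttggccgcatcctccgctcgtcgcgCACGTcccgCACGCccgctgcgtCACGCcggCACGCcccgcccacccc
Egln3 promoter, chr12:54203875-54204124, minus strand: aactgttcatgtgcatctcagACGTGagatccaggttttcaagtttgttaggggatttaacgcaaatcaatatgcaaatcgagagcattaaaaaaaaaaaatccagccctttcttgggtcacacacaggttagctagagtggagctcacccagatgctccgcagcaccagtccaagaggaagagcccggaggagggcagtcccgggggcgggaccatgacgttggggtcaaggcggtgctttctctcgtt
The printed bases held 0, 5 and 1 matches. For Fam162a the 217 bases outside the annotated gene are printed, and its whole window held 6. A second RefSeq start of Hilpda lies inside the annotated gene, and its window, not printed, held 3 matches. At least 1 match was in 38.6% of the 32851 promoter windows and in 56.4% of the 1503 of tested genes, so matches are common among expressed genes.

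Ferritin, lipid droplet and lysosome genes also leaned lower. Of 18 tested, 14 were negative and 4 positive, 0 passed, the median log2 value was -0.53, and 9 (50%, against 16.3%) had both DKO libraries below both controls, or 7 (38.9%, against 15%) without the deep cells. The median in the other cells was -0.24. Ferritin light chain (Ftl1), part of the iron storage shell, was at 6492, 6306, 3274 and 3272 CPM (log2 -1.04 ± 0.23; edgeR, adjusted p = 0.301), with the libraries of each group nearly equal. The heavy chain (Fth1) was at 25100, 28488, 17342 and 8884 CPM (log2 -1.12 ± 0.34). Plin2, which coats lipid droplets, was at 707, 938, 397 and 170 CPM (log2 -1.62 ± 0.38), and the lysosomal protease gene Ctsd at 1141, 1051, 577 and 613 CPM (log2 -0.95 ± 0.28). In each of these 4 genes the groups did not overlap. Both ferritin genes have pseudogene copies that can share their reads, so their levels are less certain. Fabp5, a fatty acid and retinoic acid carrier, was at 160, 293, 94.6 and 102 CPM. Psap, which encodes activators of lysosomal lipid breakdown, was at 844, 923, 700 and 1556 CPM, and the tetraspanin Cd9 at 1323, 1145, 1173 and 1534 CPM, both with overlapping groups.

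Beyond the lists, the lower genes with the smallest p took in redox and protease-inhibitor genes. Thioredoxin (Txn1) was at 2065, 1265, 719 and 841 CPM (log2 -1.14 ± 0.30). Cytochrome P450 reductase (Por) was at 274, 267, 104 and 90.9 CPM (log2 -1.54 ± 0.38), and cystatin B (Cstb), an inhibitor of cathepsins, at 685, 762, 397 and 273 CPM (log2 -1.19 ± 0.31). Groups did not overlap for any of the 3. Glutaredoxin (Glrx) and ubiquitin B (Ubb), named after their values were seen, were at 365, 424, 227 and 136 CPM and at 1015, 1261, 530 and 625 CPM.

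Ferritin, lysosome and hypoxia genes are also active in macrophages, so macrophage transcripts in the neutrophil sums were counted. The 12 macrophage markers summed to 1038, 691, 284 and 613 CPM, against 7976 to 10898 CPM in the other cells. Both DKO sums lay below both controls, but without the deep cells they were 1038, 648, 291 and 723 CPM and the groups overlapped. Of the markers 2 were tested, and the groups overlapped for both. Csf1r was at 228, 109, 47.3 and 114 CPM, Apoe at 468, 270, 151 and 284 CPM, and Cd163 at 0 in all 4 libraries. The 10 monocyte markers summed to 525, 991, 728.5 and 488.5 CPM. Ccl8, a macrophage chemokine named after its values were seen, was at 217, 221, 104 and 90.9 CPM in neutrophils and at a mean of 2893 CPM in the other cells. Retnlg, at 8.62 CPM outside the gate, and Hilpda, at a mean of 173 CPM there, were more abundant in neutrophils than in the other cells. Fam162a was at means of 135 CPM in neutrophils and 115 CPM in the other cells. Higd1a (132 and 192 CPM) and Tpi1 (296 and 472 CPM) were less abundant in neutrophils. The part of such RNA in the lower values was not tested.

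Cytokine and chemokine genes were abundant in these neutrophils, and their values went in both directions. The 18 tested split into 9 positive and 9 negative, 0 passed, and the median log2 value was 0.01. The summed level of all 25 members was 60170, 70815, 63550 and 44874 CPM (log2 -0.27, exact permutation p = 0.667). Cxcl2, a neutrophil-attracting ligand of Cxcr2, was at 26081, 35316, 24012 and 11201 CPM (log2 -0.89 ± 0.37), and DKO 2 was lowest by far. Its relative Cxcl3 was at 901, 2819, 624 and 125 CPM. Il1b, the inflammasome cytokine, was at 14147, 11539, 16197 and 11486 CPM, with groups that overlapped. Ccl4 and Ccl3, which attract T cells and monocytes, were at 1928, 3307, 3501 and 3704 CPM and at 1951, 3149, 2706 and 2045 CPM.

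Tnf, the inflammatory cytokine, was at 79.9, 128, 341 and 364 CPM (log2 1.56 ± 0.37; edgeR, adjusted p = 0.308), with both DKO libraries above both controls. Nfkbie, an inhibitor of NF-κB, was at 57.0, 30.0, 255 and 114 CPM from 5, 8, 27 and 10 UMIs (log2 2.18 ± 0.57). Nfkbia, a further inhibitor of the same factor, was at 4461, 4118, 3888 and 3329 CPM, a step in the other direction. Ptgs2, the inducible prostaglandin synthase, was at 2636, 1971, 4220 and 3613 CPM (log2 0.70 ± 0.24), higher in both DKO libraries.

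Cd69, a C-type lectin that immune cells put on their surface on activation and that holds back egress, lies at chr6:129267325-129275436 on the minus strand. It was at 22.8, 56.3, 322 and 261 CPM (log2 2.54 ± 0.45; edgeR, adjusted p = 0.0711), from 2, 15, 34 and 23 UMIs, and the groups were far apart. Without the B marker-bearing deep cell DKO 1 was at 156 CPM, and the log2 value was 2.07. The next 3 genes come from different lists or from the smallest p, and do not stand for a group. Nr4a1, an immediate-early nuclear receptor, was at 319, 71.3, 577 and 488.5 CPM. Icam1, the adhesion ligand of integrins, was at 251, 199, 397 and 534 CPM, and Ptk2b, an adhesion kinase, at 126, 86.3, 227 and 284 CPM. For all 4 genes both DKO libraries lay above both controls.

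Of 19 transcription factors tested, 12 were positive and 7 negative, 0 passed, and in 8 (42.1%, against 21.8%) both DKO libraries lay above both controls. The median log2 value was 0.29. Junb was at 6537, 4493, 8307 and 7725 CPM (log2 0.48 ± 0.25), and Fosl2 at 605, 586, 1135 and 807 CPM. Cebpb, which drives emergency granulopoiesis, was at 3765, 3315, 3964 and 2886 CPM, with overlap. Immediate-early genes also respond to tissue digestion. A list of 16 dissociation-stress genes was at 32789, 24163, 33823 and 32071 CPM in sum. Of its 13 tested members 8 were positive and 5 negative (median log2 0.25). In it 1 gene was higher and 2 lower at an unadjusted p below 0.05 (edgeR), against 54 and 75 of all 1474 tested. In 4 (30.8%, against 21.8%) both DKO libraries lay above both controls, and in 2 (15.4%, against 16.3%) below. Without the deep cells it was again 4 and 2, against 26.1% and 15%. Zfp36, of this list, was at 3080, 1813, 3983 and 3794 CPM. The heat shock genes Hspa1a and Hspa1b, named after their values were seen, ran the other way. Only the fit with no filter on low counts, which takes in sparse genes, called both lower in DKO (log2 -5.27 and -7.23). That fit also called the B cell markers Ms4a1, Cd79a and Ighm higher (log2 4.58, 6.31 and 2.18). In DKO 1 the B cell list lay mostly in 1 deep cell. Mitochondrially encoded transcripts were at 10268, 10980, 16093 and 14985 CPM, and 10268, 9973, 10666 and 14723 CPM without the deep cells. The part of digestion or of RNA quality in the higher values was not tested.

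Endoplasmic reticulum stress genes and targets of Atf4 had a median near that of all genes. Of 10 tested, 6 were positive and 4 negative, 0 passed, and the median log2 value was 0.05. In 4 (40%, against 21.8%) both DKO libraries lay above both controls, or in 3 (30%, against 26.1%) without the deep cells. Slc7a11, the cystine importer, was at 2156, 2004, 3226 and 2874 CPM, and Ppp1r15a, which restores translation after stress, at 1517, 953, 2204 and 2090 CPM. Both were higher in both DKO libraries. Xbp1, a factor of the unfolded protein response, ran the other way at 422, 364, 180 and 284 CPM.

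Interferon genes were divided. Of 26 tested, 10 were positive and 16 negative, 0 passed, and the median log2 value was -0.23, against -0.20 in the other cells. The summed level of all 28 members was 20992, 22632, 22338 and 18188 CPM (log2 -0.11, exact permutation p = 0.667). Its log2 value turned to 0.03 without DKO 2. Cxcl10, a ligand for Cxcr3 on T cells, was at 1392, 1032, 2810 and 1829 CPM (log2 0.87 ± 0.28), above both controls in both DKO libraries. Ifitm1 and Ifitm3, which block virus entry, were at 2772, 4775, 1854 and 2034 CPM (log2 -1.05 ± 0.30) and at 1688, 2305, 1239 and 1272 CPM (log2 -0.76 ± 0.27), below both controls. Rsad2, another antiviral gene, was at 1403, 1734, 1958 and 1693 CPM, and the guanylate-binding protein gene Gbp2 at 2453, 1716, 2763 and 1681 CPM, both with overlap. In 11 of the 26 genes both DKO libraries were lower (42.3%, against 16.3%) and in 2 higher (7.69%, against 21.8%). The split rested in part on the deep cells: without them 9 were lower (34.6%, against 15%) and 6 higher (23.1%, against 26.1%).

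Genes of recently arrived neutrophils, a list that holds Retnlg and relatives of calprotectin, summed to lower values in DKO. The sum was 22784, 23822, 15204 and 17586 CPM, without overlap between groups (log2 -0.51, exact permutation p = 0.333). Most of that difference was Retnlg: the sum of the other members was 17524, 16776, 14192 and 16018 CPM (log2 -0.18, exact permutation p = 0.333). Of 14 tested, 1 fell (Retnlg), 9 were positive and 5 negative, and the median log2 value was 0.10. In 5 (35.7%, against 16.3%) both DKO libraries lay below both controls, and in 3 (21.4%, against 21.8%) above. Without the deep cells it was 5 below (35.7%, against 15%) and 5 above (35.7%, against 26.1%). The genes named next are among the lower ones. S100a6 was at 5271, 5154, 3463 and 3738 CPM (log2 -0.61 ± 0.23) and S100a11 at 3046, 3217, 2195 and 2442 CPM (log2 -0.51 ± 0.23), both relatives of calprotectin. Fcer1g, the signalling chain of Fc receptors, was at 2498, 2643, 1883 and 1840 CPM. For these 3 genes the groups did not overlap.

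Receptors with which neutrophils sense chemoattractants and microbes showed no common direction. Of 25 tested, 14 were positive and 11 negative, 0 passed, and the median log2 value was 0.01. Cd14, a co-receptor for bacterial lipopolysaccharide, was at 2453, 3401, 2186 and 2363 CPM. The C-type lectins Clec4d and Clec4e, which sense fungal and mycobacterial glycolipids, were at 1940, 2027, 2290 and 1295 CPM and at 1871, 1869, 2091 and 1613 CPM. Fpr1, a formyl peptide receptor, was at 297, 304, 218 and 148 CPM, lower in both DKO libraries, and Nlrp3, the inflammasome sensor, at 1050, 792, 1514 and 1182 CPM, higher in both. Fpr2, named after its values were seen, was at 559, 578, 738 and 954 CPM.

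The fixed list of tumour-adapted neutrophil genes had 19 tested members, of which 15 were negative and 4 positive, and 0 passed. In 9 (47.4%, against 16.3%) both DKO libraries lay below both controls and in 3 above, or in 6 (31.6%, against 15%) and 3 without the deep cells. The sum of all 24 members was 20171, 25030, 19868 and 16734 CPM (log2 -0.30, exact permutation p = 0.333), and DKO 1 was close to control 1. Ier3, a gene of the early stress response, was at 4358, 4674, 3841 and 2681 CPM. This list shares Hilpda, Cxcl3 and Nfkbie with the genes above.

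Immune-suppressive genes were mixed. Of 14 tested, 9 were negative and 5 positive, with a median log2 value of -0.27 and 0 passing. Cd274, which encodes the checkpoint ligand PD-L1, was at 1358, 833, 1154 and 795 CPM, with overlap. Arg1, the arginine-degrading enzyme of suppressive myeloid cells, was at 137, 161, 66.2 and 125 CPM and at a mean of 3503 CPM in the other cells. Wfdc17, a small secreted protease-inhibitor-like protein, was at 2190, 5488, 1060 and 1704 CPM (log2 -1.58 ± 0.46), lower in both DKO libraries. Thbs1, a matrix protein that binds CD47, was at 1141, 3180, 5071 and 1329 CPM.

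Killing and survival genes showed no common direction. Of 11 oxidative burst genes 6 were positive and 5 negative, with a median log2 value of 0.01. Cybb, the catalytic subunit of the NADPH oxidase, was at 79.9, 90.1, 161 and 807 CPM, and much of the DKO 2 value lay in the deep cell: the log2 value was 2.36 with the deep cells and 0.96 without. Of 10 survival genes 5 were positive and 5 negative. No gene of these lists passed. Mcl1, the protein on which neutrophil survival rests, was at 3023, 3330, 3728 and 2829 CPM.

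**Figure D3:**
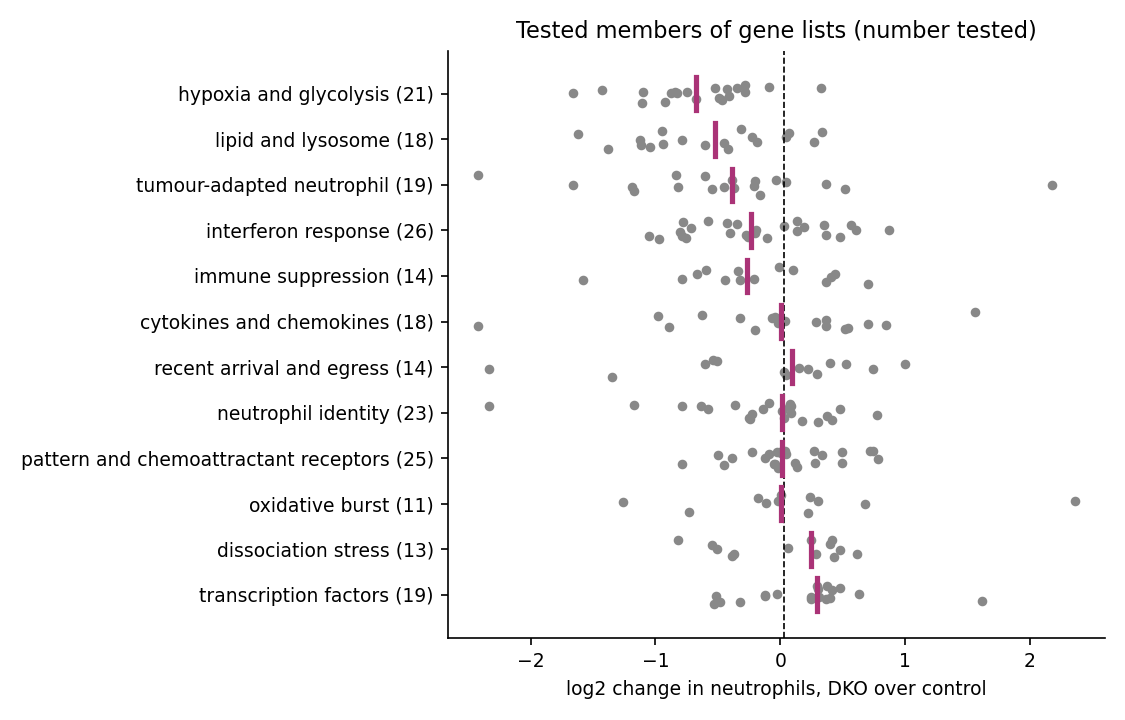
Log2 change (DKO over control) of each tested member of 12 gene lists in neutrophils, with the number tested in brackets, the list's median as a vertical bar and the median of all tested genes (0.03) as a dashed line. The hypoxia and glycolysis members lie to the left with a median of -0.67, and the transcription factors have the highest median shown, 0.29.

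Retinoic acid genes were unevenly detected in these neutrophils. Their summed level was 1426, 1573, 2356 and 1534 CPM, against 1513 to 2016 CPM in the other cells. Of 26 genes of the pathway 13 had 0 UMIs in all 4 libraries, among them the retinaldehyde dehydrogenase genes Aldh1a1, Aldh1a2 and Aldh1a3, the receptor gene Rarb and the retinoic acid hydroxylase gene Cyp26b1. The filter on low counts kept 5, of which 4 were positive and 1 negative, and 0 passed the test. Rara, the retinoic acid receptor of granulocytes, was at 171, 173, 284 and 182 CPM (log2 0.36 ± 0.36). Tgm2, a transglutaminase that retinoic acid induces, was at 776, 627, 1306 and 795 CPM (log2 0.52 ± 0.31). In both genes DKO 2 lay just above the controls. Rdh12, a retinal reductase, was at 148, 297, 416 and 239 CPM, against a mean of 1.81 CPM in the other cells, and Dhrs9, a retinol dehydrogenase, at 114, 82.6, 161 and 114 CPM. Groups overlapped for both, and Dhrs9 had 10 UMIs in control 1 and in DKO 2.

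To see whether the neutrophil values followed those of the whole sort, the change in neutrophils was set against that of the 27433 other cells, with the library as block. It differed for 9 of 1474 genes, 0.611% (edgeR, population-by-group term, adjusted over all tested genes), 5 with a more positive and 4 with a more negative value in neutrophils, and 133 had an unadjusted p below 0.05. Retnlg was not among the 9, so its fall was not shown to differ from the change in the other cells. The other cells include the cells that failed only the calprotectin or only the C1q limit. Hilpda differed by log2 -1.91 ± 0.32 (edgeR, adjusted p = 0.000229): it was at 106, 213, 247 and 126 CPM in the other cells, with overlapping groups. Fam162a differed by -3.27 ± 0.59 (edgeR, adjusted p = 0.000624), and was at 98, 130, 135 and 97.3 CPM there. Without DKO 1 neither passed (Hilpda log2 -2.17, edgeR adjusted p = 0.0514; Fam162a log2 -4.24, edgeR adjusted p = 0.213).

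The other differences were less steady. Slc2a3, a glucose transporter, differed by log2 -1.70 and Dgat1, the last enzyme of triglyceride synthesis, by -1.45, with positive values outside the gate (1.12 and 0.57). Lyz2 (lysozyme) differed by 1.62 and Clec4d by 1.44: their log2 values were -1.40 and -1.74 outside the gate and 0.36 and -0.23 within it. Without the deep cells the Lyz2 value within the gate was -0.13, and its difference 1.23. Cd69 differed by 2.06, Nfkbie by 2.22 and Cxcl10 by 1.24. Each of these 7 lost the call in 2 or more of the 4 fits that left out 1 library, and with cells of up to 2 C1q UMIs taken in.

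Classical monocytes, which like neutrophils are myeloid cells that enter tumours from the blood, were compared next. They were taken as 144, 197, 104 and 86 cells with at least 2 Ly6c2 UMIs and 1 Ccr2 UMI, 0 of C1q and CD3, and under 1% calprotectin. The change differed for 6 of 1474 genes, 0.407% (edgeR, population-by-group term), and 165 had an unadjusted p below 0.05. Among the 6, S100a8 is a gene of the rule in both populations and is not read as a result. Retnlg was not among the 6, so its fall was not shown to differ from the change in monocytes. Hilpda was at 94.4, 136, 343 and 73.4 CPM in monocytes, and differed by log2 -2.26 ± 0.35 (edgeR, adjusted p = 9.58e-05). It passed in each fit that left out 1 library, with an edgeR adjusted p of at most 0.00637. Egln3 was at 17.4, 33.5, 74.0 and 47.0 CPM in monocytes, higher in both DKO libraries, and differed by -2.23 ± 0.47 (edgeR, adjusted p = 0.00926; 0.0656 without control 1 and 0.0682 without control 2). With cells of up to 2 C1q UMIs the Egln3 difference was -2.02 and did not pass (edgeR, adjusted p = 0.0961). Fam162a differed by -3.18 ± 0.61 (edgeR, adjusted p = 0.00347; 0.0757 without DKO 1).

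Lcn2 and Cxcl3 were the last of the 6, and each lost the call in several settings. Lcn2 differed by log2 2.93 (edgeR, adjusted p = 0.0205), and by 0.95 without the deep cells (edgeR, adjusted p = 0.706). Its edgeR adjusted p was 1 without control 2, 0.0932 without DKO 2 and 0.225 with up to 2 C1q UMIs. Cxcl3 differed by -1.89 (edgeR, adjusted p = 0.0217), and by -0.50 without DKO 1 (edgeR, adjusted p = 0.921). It also failed to pass without control 1 (edgeR, adjusted p = 0.140), without control 2 (0.510) and with up to 2 C1q UMIs (0.172), at log2 values of -1.76 to -1.88.

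**Figure D4:**
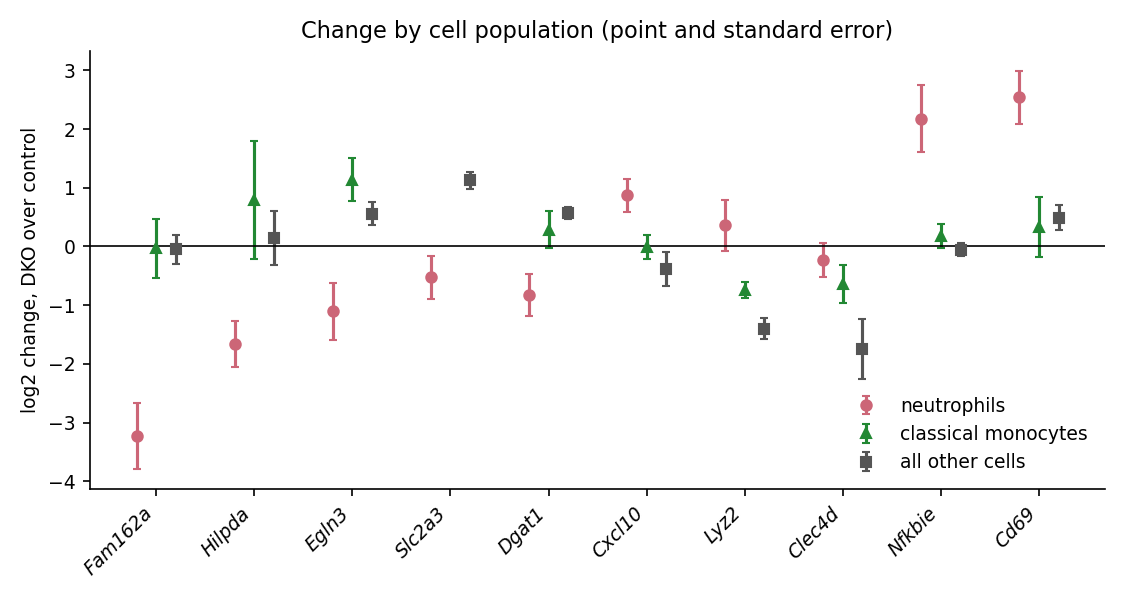
Log2 change (DKO over control) with its standard error in neutrophils (red circles), classical monocytes (green triangles) and all other cells (grey squares) for 10 genes, without a monocyte point for Slc2a3, which was too sparse there to be tested. Of the 3 populations, Hilpda and Fam162a are low in neutrophils (-1.66 and -3.23, against 0.14 and -0.05 in the other cells), while Lyz2 and Clec4d are low in the other cells (-1.40 and -1.74).

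Neutrophils of 1 library differed from each other. From lower to upper quartile, calprotectin made up 2.07 to 8.95, 3.48 to 15.0, 2.31 to 8.47 and 1.90 to 7.97% of a cell's UMIs. The gate fixed the lower limit at 1%, and the highest share, 37.4%, was that of the deep DKO 2 cell. The median cell had 455, 820, 551 and 505 calprotectin UMIs per 10000. Retnlg went with calprotectin from cell to cell, with Spearman's rho of 0.63, 0.66, 0.37 and 0.71 within the 4 libraries. Both also went with depth. With a cell's UMIs, rho was 0.46, 0.42, 0.18 and 0.40 for calprotectin and 0.33, 0.40, 0.34 and 0.36 for Retnlg. Cells of 1 library also share its free RNA. Cd274 went with the interferon genes (rho of 0.65, 0.30, 0.63 and 0.49) and against calprotectin (rho of -0.20, -0.34, -0.21 and -0.46). These are descriptions within libraries of 52, 127, 59 and 34 cells.

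The median neutrophil also differed between libraries of 1 group. It had 201, 345, 202 and 107 Cxcl2 UMIs per 10000, so control 1 and DKO 1 were alike and control 2 and DKO 2 lay on either side. For Il1b the medians were 160.0, 98.2, 162 and 123, and for the ferritin pair 186, 288, 167 and 103. In each of these the 2 libraries of a group lay apart, and control 1 was near DKO 1 for Cxcl2 and Il1b.

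**Figure D5:**
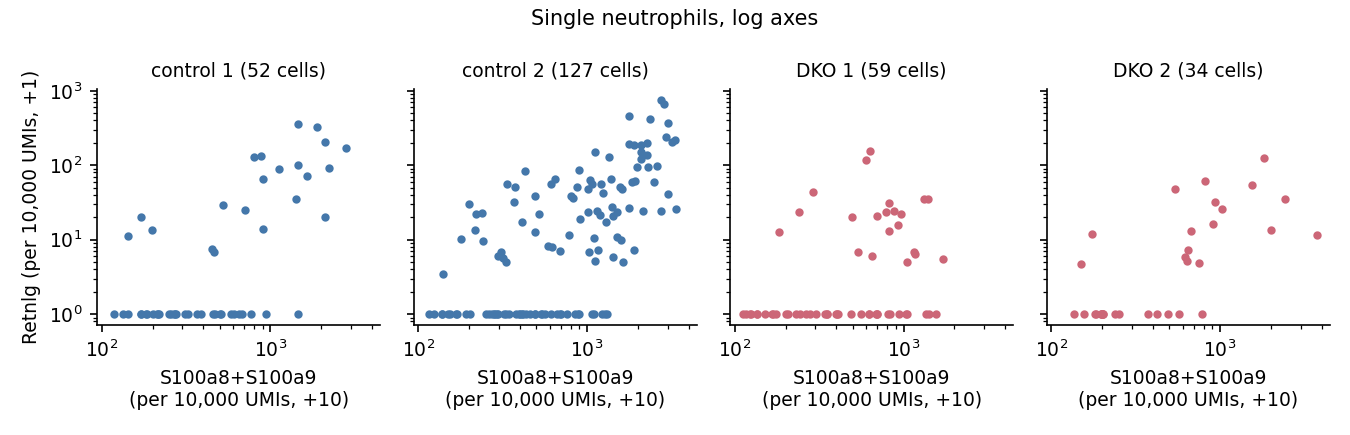
Retnlg against calprotectin (S100a8 plus S100a9) in single neutrophils, each as UMIs per 10000 with 1 and 10 added, on log axes, 1 panel per library. The cells richest in Retnlg, at 361 and 758 per 10000 in the controls, had 1453 and 2721 calprotectin UMIs per 10000. The richest DKO cells, at 156 and 126, had 625 and 1801, and the former lies near its library's median of 551.

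Markers of the remaining cell types were near 0 in the neutrophil sums, apart from the deep DKO 1 cell. The 8 B cell markers summed to 114, 41.3, 1419 and 56.8 CPM, and to 72.6 CPM in DKO 1 without the deep cell. The 12 T and NK cell markers summed to 45.6, 37.5, 94.6 and 102 CPM, against 1046 to 2030 CPM in the other cells. Eosinophil, mast cell, dendritic, fibroblast and red cell lists each came to at most 47.3 CPM in any library, with Epx, Cpa3, Flt3 and Dcn at 0 in all 4. Siglecf, an eosinophil marker that some tumour neutrophils also carry, had 2, 2, 2 and 1 UMIs. MHC class II presentation genes were all 5 positive (median log2 0.63), a value that came to 0.11 without the deep cells.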

How the data were processed

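The authors deposited UMI counts for each gene and barcode (whole numbers, per the file headers). Per the submitters' processing notes the authors used Cell Ranger, Seurat 3.1.0 and R 3.6.0, with the builds GRCh38 and mm10 named, and the matrix headers give software version 3.1.0. The lowest depth of a deposited barcode was 500, 500, 500 and 504 UMIs, so shallower barcodes were not analysed here. Of 31053 features, 30934 (99.6%) matched GENCODE vM21, the source of the GRCm38 coordinates. Of 30504 barcodes, 2799 had over 10% mitochondrial UMIs and were left out. Neither free RNA nor doublets were corrected for in the results as given. Scrublet's highest scores, at 0.8% per 1000 barcodes in each library, marked 3 of the 272 neutrophils.

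Counts were summed per library over the neutrophils and fitted in R 4.3.3 with edgeR 4.0.16 (group as the one term, quasi-likelihood F test with robust dispersion, TMM scaling, genes kept by filterByExpr), with Benjamini-Hochberg adjustment over the 1474 genes tested and a threshold of 0.05. A standard error is the log2 change divided by the root of F. The change was compared with that of other cells through a population-by-group term with the library as block. DESeq2 1.42.0 was an alternative. The fits were tested on simulated data with known changes. Shares and list sums were compared with exact permutation tests over the 4 libraries. Thinning drew 1000 UMIs per cell and left out shallower cells. Replicate numbers did not pair the libraries: deviations of same-numbered libraries from their group means correlated at -0.09 over the 1474 genes, and no block was used in the results as given.

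The members and the 29 gene lists were chosen with earlier results of these data known. Named genes were the rule genes and markers, called genes (filled to 8 per direction by smallest p among genes with at least 50 CPM and no overlap), up to 4 members with the highest level and up to 3 with the smallest p in each list, the 6 with the smallest p of each population-by-group term, the 12 with the largest ratio to other cells at 200 CPM or more, and the targeted genes Aldh1a1 and Aldh1a3, both at 0 UMIs in the neutrophils of all 4 libraries. Called population-by-group genes beyond the 6, and the genes listed for their counts or as examples outside this rule, were named after their values were seen.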

Additional observations from a re-analysis of the deposited data

Results flagged for a closer look

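For 14 gene comparisons the DKO against control change in neutrophils differed from that of another population by the edgeR population-by-group term with an adjusted p under 0.05. Against all other cells the log2 difference was -1.91 for Hilpda, -3.27 for Fam162a, 1.44 for Clec4d, 2.06 for Cd69, 2.22 for Nfkbie, 1.62 for Lyz2, 1.24 for Cxcl10, -1.45 for Dgat1 and -1.70 for Slc2a3. Against classical monocytes it was -2.26 for Hilpda, -3.18 for Fam162a, -2.23 for Egln3, 2.93 for Lcn2 and -1.89 for Cxcl3. Hilpda against classical monocytes was the only 1 of the 14 that passed in each fit without 1 library. The Lcn2 difference was 0.95 without the 3 deep cells, and the Cd69 difference 1.55 (edgeR, adjusted p = 0.0881). Macrophage markers summed to 1038, 691, 284 and 613 CPM in the neutrophils, and to 1038, 648, 291 and 723 CPM without the deep cells, and their part in these differences was not tested.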

How the results depend on the processing

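The share of neutrophils (log2 -0.47) ran from -0.99 to 0.35 when 1 library was left out, and turned positive without control 2. The interferon sum (log2 -0.11) ran from -0.26 to 0.034, and turned positive without DKO 2. The count of changed genes (1) was 0 with Csf1r, Ly6c2, Mrc1 and Apoe at 0 UMIs, which left 707 genes tested (67 at an unadjusted p below 0.05, edgeR), 2 without the 3 deep cells, 7 with up to 2 C1q UMIs, 24 with no filter on low counts, and 3 to 12 without 1 library. Genes whose change differed from the other cells (9) numbered 14 with no filter, 15 without the deep cells, 4 with up to 2 C1q UMIs, and 4 to 15 without 1 library. Those that differed from monocytes (6) numbered 17, 14 and 3 in the same settings and 7 to 37 without 1 library. The cause of these shifts was not tested. Changed genes without DKO 1 took in Camp, Ngp and Ltf, and those without DKO 2 took in Igkc and Ighm. These genes lay mostly in the deep cell of the remaining DKO library. The settings on deep cells, on C1q UMIs and on the recent-arrival sum without Retnlg were chosen after the data were seen. A group with 1 library left was assumed to vary like the other. Depth limits what could be called, with 34 to 127 cells behind a library.

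With the replicate number as a block the gene count was 14, the share -0.33 and the interferon sum -0.11; the labels tie same-numbered libraries to no shared source, and no direction among the 5 list sums changed.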
